A study of Mus musculus with 10 samples.

Results

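Cytosolic ribosomal protein genes encode the protein part of the 40S and 60S subunits of the ribosome that translates messenger RNA in the cytosol. They were taken as every protein-coding gene whose symbol is Rpl or Rps followed by a number, plus Rpsa, leaving out the Rps6k kinases and Rps27l. The rule used names and no measured value, and it found 88 of the 53465 genes in the count tables. Of the 88, 74 are core genes, with 31 for the 40S and 43 for the 60S subunit. A further 6 are paralogs (Rpl10l, Rpl22l1, Rpl36al, Rpl39l, Rpl3l and Rpl7l1), and 7 are processed copies that the annotation calls protein-coding (Rpl10-ps3, Rpl36-ps4, Rpl36a-ps1, Rpl9-ps1, Rpl9-ps6, Rps12-ps3 and Rps27rt). The remaining 1, Rps19bp1, is a nucleolar protein that binds Rps19 and is not part of the ribosome. A filter on low counts kept 84. The 4 that did not pass were Rpl10l and Rpl36-ps4, with 0 counts in every library, Rpl3l with 1 count in all, and Rpl9-ps1 with 12 counts in all. In the library with the fewest counts, a count of 0 allows a level of up to 0.181 CPM before scaling between libraries (CPM, a gene's count relative to library size).

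The libraries hold polyadenylated RNA of CD8 T cells taken from lymph nodes (peripheral) and spleen of OT-I mice, C57BL/6 animals whose transgenic T cell receptor recognises an ovalbumin peptide. All cells were activated with that peptide and interleukin 2 in 25 mM glucose for 3 days and then kept in 1 mM glucose, and the series' design text adds a 4 h restimulation with PMA and ionomycin. The d5 group (n = 2) had 1 day in 1 mM glucose and the d9 group (n = 3) had 5 days, without acetate. The d5 with acetate (n = 2) and d9 with acetate (n = 3) groups differed from these by 5 mM sodium acetate, given 1 day before analysis, so the comparisons ask what acetate and longer glucose restriction do to gene expression. No library of cells kept in 25 mM glucose was used, and days of restriction and days of culture rise together between d5 and d9. The labels do not say whether replicates came from separate mice, so p-values measure the spread between these libraries, which may be technical.

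A ribosome carries nearly all of these proteins in equal number, and their messenger RNAs are among the most abundant of a dividing cell. Most start with a C followed by a stretch of pyrimidines, the 5′ terminal oligopyrimidine (TOP) motif, through which the kinase complex mTORC1 and the RNA-binding protein Larp1 control their translation and storage. Activated T cells are known to build many ribosomes as they grow and divide. The counts measured messenger RNA and say nothing of how much of it was translated.

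The start sites of the members share letters that the rule did not use. RefSeq promoter windows of GRCm38.p6 matched 63 of the 88 members by symbol, with 74 start sites. A run of at least 8 C or T within 15 bases either side of the start, on the sense strand, was present in 35.1% of them and in 12% (3943) of the 32851 start sites of all genes. The mirror run of at least 8 A or G was present in 4.05% of member sites and 13.2% of all sites. A C at the start itself followed by 4 C or T was present in 17.6% against 2.51%. Windows of 30 bases centred on the start are shown for a few members, with the C or T runs of at least 8 in capitals. Rps6, Rpl15, Rpl38 and Rpl22l1 show what a run looks like. Rps13 and Rps3a1 were called in opposite directions between d5 and d9 with acetate and have none in these windows. Rps27 and Rps27rt are a parent and its processed copy.
Rps6, chr4:86857353-86857382, minus strand: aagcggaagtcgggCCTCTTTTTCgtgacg
Rpl15, chr14:18270972-18271001, minus strand: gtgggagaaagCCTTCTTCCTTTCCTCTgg
Rpl38, chr11:114668565-114668594, plus strand: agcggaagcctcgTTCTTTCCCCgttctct
Rpl22l1, chr3:28805493-28805522, plus strand: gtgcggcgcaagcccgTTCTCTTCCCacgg
Rps13, chr7:116334176-116334205, minus strand: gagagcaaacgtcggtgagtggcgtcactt
Rps3a1, chr3:86142654-86142683, minus strand: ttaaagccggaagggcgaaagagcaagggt
Rps27, chr3:90213634-90213663, minus strand: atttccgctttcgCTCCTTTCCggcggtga
Rps27rt, chr9:114982725-114982754, minus strand: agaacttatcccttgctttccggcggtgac
The longest run printed, in Rpl15, is 17 bases long, while Rps13 has at most 3 and Rps3a1 at most 2 C or T in a row. The start sites are annotated ones, and the starts used in these cells were not measured. For Rps3a1 the matched GENCODE gene starts at position 86142702, outside the printed window, so a run there would be missed. The matched genes of Rps6, Rpl15, Rpl38 and Rpl22l1 also start outside their printed windows, at 86857412, 18271391, 114668524 and 28805436. Rps27 and Rps27rt share an unbroken stretch of 38 bases that begins at position 2 from the start of Rps27 and position 1 from that of Rps27rt.

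Other short motifs were counted in the 300 bases from 250 before to 50 after each start, on either strand, with overlaps allowed. CCGGAA, the core of ETS factor sites, was present in 47.3% of member windows and 14.9% of all windows. ATGGCG, found in YY1 sites, was present in 31.1% against 8.93%, and GGGCGG, found in Sp1 sites, in 59.5% against 35.7%. TATAAA was present in 8.11% of member windows and 13.6% of all. These are matches of letters, and no binding was measured.

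Per library, about 16588000 to 17971500 counts fell on genes in the d5 groups and about 22966100 to 24659200 in the d9 groups. Depth therefore differed between the days without overlap, and its part in the comparisons of d9 with d5 was not tested. The 5 CD8 T cell markers (Cd3d, Cd3e, Cd3g, Cd8a and Cd8b1) summed to between 1328 and 2120 CPM and were present in all libraries, and between d5 and d9 4 of the 5 rose without acetate (Cd8a by 0.82 on the log2 scale) and 1 with it. With acetate at d5, Cd8a rose by 0.75. The 4 myeloid markers summed to at most 1.96 CPM and the 2 erythroid markers to at most 0.112, with Hba-a1 at 0 counts throughout. The 2 CD4 T cell markers reached at most 1.74 CPM, and Cd4 rose by 2.18 between d5 and d9 without acetate. B cell markers summed to 77.3 to 204 CPM, nearly all of it Ighm, which fell by 0.81 between d5 and d9 without acetate and by 0.91 with it, with Cd79a and Ms4a1 each under 1 CPM. NK markers summed to 1.23 to 25.9 CPM and were highest at d9 with acetate, nearly all from Klrb1c, which rose by 2.86 on the log2 scale between d5 and d9 without acetate and by 1.93 with it, and by 1.86 with acetate at d5. Mitochondrially encoded genes took 0.781% to 1.12% of counts in the d5 groups and 0.347% to 0.532% in the d9 groups, and the part of these differences in the results below was not tested.

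The share of a library's counts on the 88 genes differed as much between replicates as between groups. It was 10.9% and 9.87% in the d5 libraries and 10.9% and 13.0% in d5 with acetate. At d9 it was 14.3%, 10.9% and 11.7%, and at d9 with acetate 10.35%, 14.01% and 10.38%. The group means were 10.4% ± 0.759 (SD, n = 2), 11.96% ± 1.43 (n = 2), 12.3% ± 1.75 (n = 3) and 11.6% ± 2.11 (n = 3) in that order. Both d5 with acetate libraries lay above both d5 libraries, though replicate 1 of each group was at 10.9%, and all other pairs of groups overlapped. In each d9 group 1 library stood above the rest: replicate 1 at d9 and replicate 2 at d9 with acetate. The exact binomial 95% interval was 14.250% to 14.278% in the former and 13.996% to 14.025% in the latter, and these intervals cover counting error only. Both subunits moved alike, since 40S genes took 7.04% and 60S genes 7.17% in the high d9 library against 5.39% and 5.49% in replicate 2. A share is relative, so more ribosomal protein RNA and less RNA of other genes cannot be told apart, and in bulk samples neither can fewer cells of a type and less RNA per cell.

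**Figure D1:**
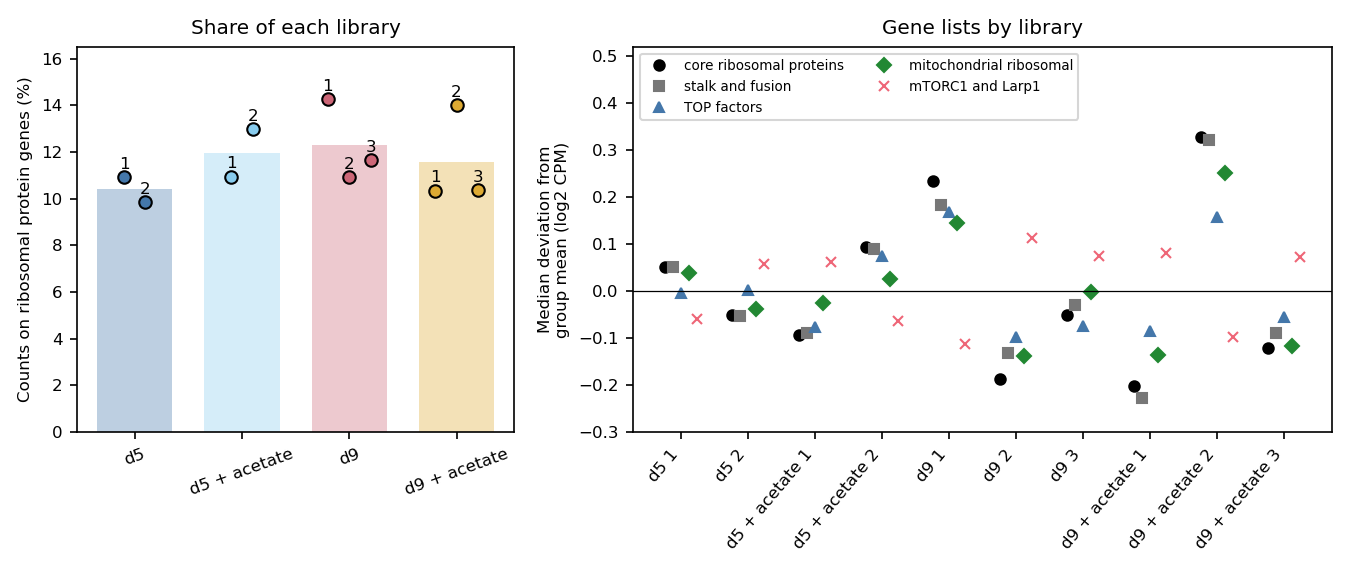
Left, percent of counts on the 88 genes in each library (points, numbered by replicate) with the group mean as a bar. Right, the median over each gene list of the deviation from the group mean, in log2 CPM, per library; the core genes are highest in d9 replicate 1 (0.24) and d9 with acetate replicate 2 (0.33), where the mTORC1 and Larp1 list is lowest.

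Core members varied together from library to library. In d9 replicate 1, 73 of the 74 core genes were above their group mean, with a median deviation of 0.24 in log2 CPM, and in replicate 2 none was, with a median of -0.19. In d9 with acetate replicate 2, all 74 were above it, with a median of 0.33, against none in replicate 1 and 3 in replicate 3. Within the d5 group 72 of the 74 were higher in replicate 1, and within d5 with acetate 72 were higher in replicate 2. The median level of the core genes had a pooled SD between replicates of 0.216 in log2 CPM. Since members move together, numbers of members with the same sign are not numbers of independent results. The median within-group SD of a core gene was 0.225 in log2 CPM, close to the 0.224 of all tested genes. Expressed as a share of the summed core counts, that SD dropped to a median of 0.0493, and it was smaller for 72 of the 74. The 2 exceptions were Rps28, a small 40S protein, and Rpl24, a 60S protein.

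Genes outside the rule moved with these libraries too. A list of 6 stalk and fusion genes, among them the stalk proteins Rplp0, Rplp1 and Rplp2, the Fubi fusion gene Fau and the 40S-bound protein Rack1, had a median deviation of 0.18 in d9 replicate 1 and 0.32 in d9 with acetate replicate 2. The 20 other genes known as TOP messenger RNAs, mostly translation factors, stood at 0.17 and 0.16 there, and the 77 tested genes of mitochondrial ribosomal proteins, which carry no such role in the cytosol, at 0.15 and 0.25. The mTORC1 and Larp1 list stood at -0.11 and -0.10 in the same libraries. Larp1, which binds TOP messenger RNAs, had 340 CPM in d9 replicate 1 against 670 and 653 in the other d9 libraries, and 426 in d9 with acetate replicate 2 against 820 and 811. Its levels were thus lowest where ribosomal protein genes were highest within each d9 group, a description over 6 libraries.

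**Figure D2:**
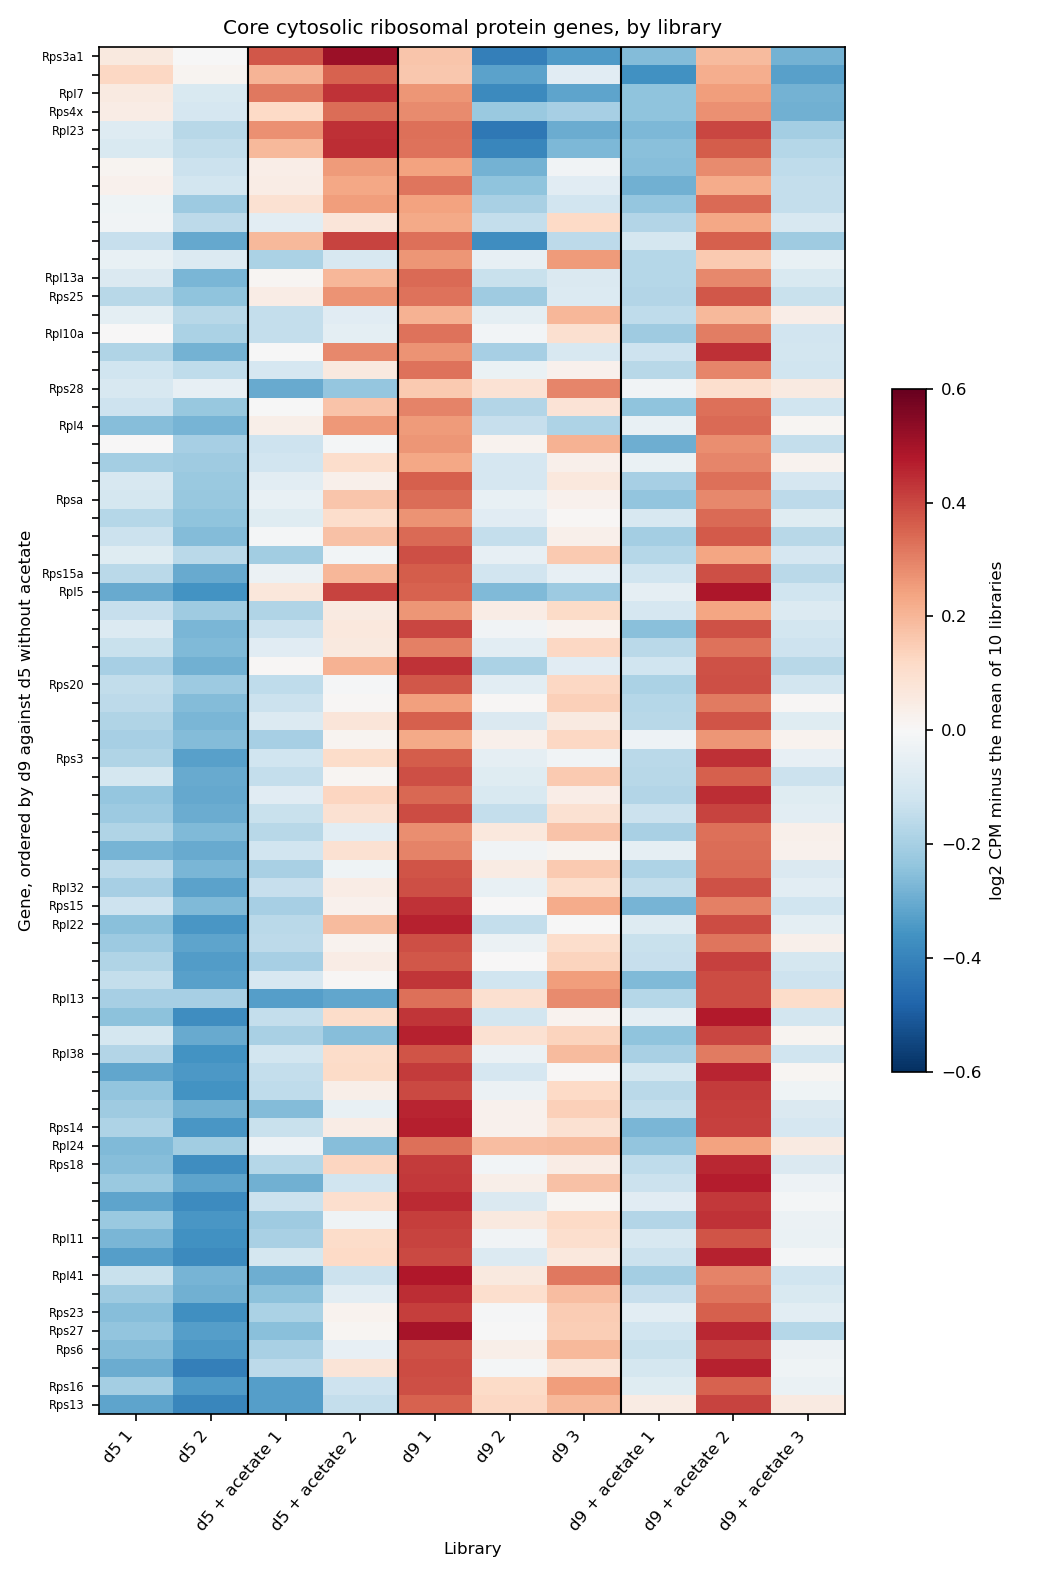
Each row is 1 of the 74 core genes and each column a library; colour gives log2 CPM minus the gene's mean over the 10 libraries, limited to 0.6 either way, and rows are ordered by the difference of d9 from d5 without acetate, with names for a selection. The d9 replicate 1 and d9 with acetate replicate 2 columns are red nearly throughout.

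Levels can be compared between genes only per length, and were taken as mean CPM over 10 libraries per kilobase of a principal annotated transcript. The core median was 1760 CPM per kilobase, with quartiles of 1254 and 2568. The 5 highest were Rpl32 at 4969, Rps18 at 4917, Rps15 at 4434, Rps14 at 4070 and Rps27 at 3862 CPM per kilobase, so the top gene was 2.82 times the median. At the other end were Rpl24 at 42.0, Rpl13a at 130 and Rps15a at 370 CPM per kilobase. For Rpl24, 47.0% of exonic bases are shared on the same strand with Gm28037, which had 0 counts in every library. For Rpl13a, known also for a role in the silencing of inflammatory transcripts, 35.4% are shared with Gm45713, Mir5121 and Snord33, also at 0 counts. How the counting treated reads over shared bases is not stated, and the part of this in these low levels was not tested. The Rps15a value rests on a transcript model of 5130 bases, and before division by length its mean was 1897 CPM, above the core median of CPM.

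**Figure D3:**
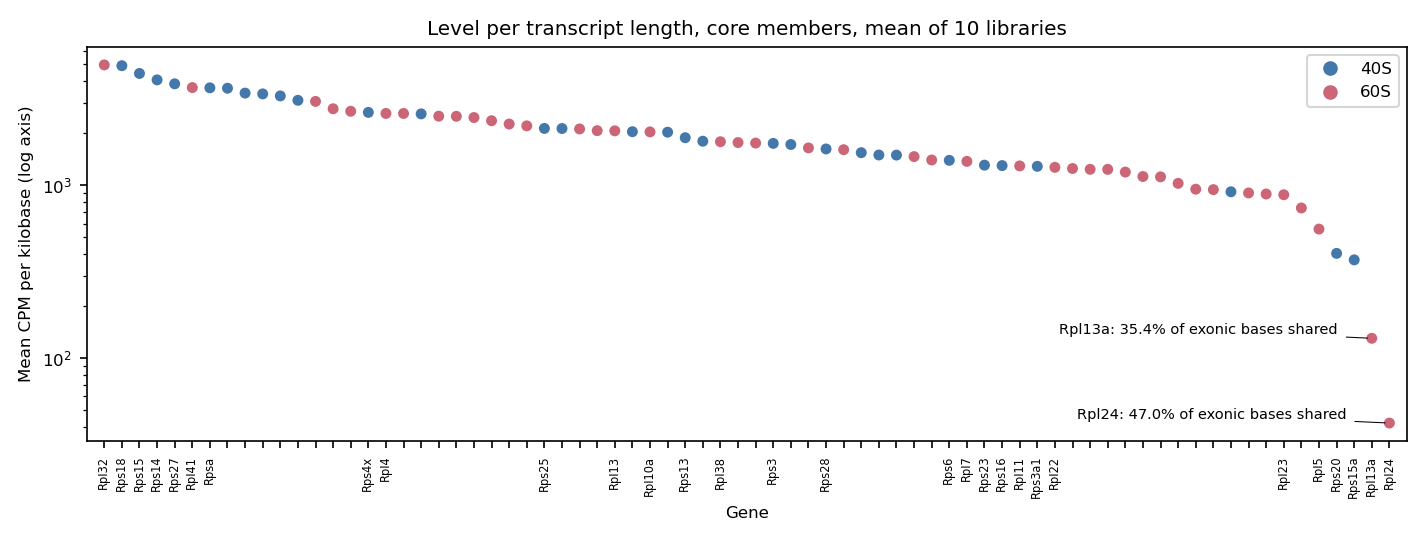
Mean CPM per kilobase (log axis) of the 74 core genes in descending order, blue for 40S and red for 60S, with names for a selection. The 72 highest lie between 370 and 4969, and Rpl13a (130) and Rpl24 (42.0) lie below them.

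Acetate at d9 left no member past an adjusted p of 0.05. With edgeR's quasi-likelihood test and Benjamini-Hochberg adjustment over 13182 genes, 0 of 84 members were called, against 0.0303% of all genes, and 3 members had an unadjusted p under 0.05. DESeq2 and limma-voom also called 0. The median log2 change was -0.08 (15 positive, 69 negative) beside 0.01 over all genes, and leaving out 1 library at a time moved it from -0.22 (without d9 with acetate replicate 2) to 0.04 (without d9 replicate 1). Without both high-share libraries it was -0.11, again with 0 called. The 3 of smallest p were processed copies: Rps12-ps3 at -0.80 ± 0.30 SE with adjusted p = 0.255, Rpl10-ps3 at -0.55 ± 0.23 SE and Rpl9-ps6 at -0.34 ± 0.15 SE. Rps12-ps3 had 0.985, 0.593 and 0.783 CPM at d9 and 0.379, 0.504 and 0.469 with acetate, and Rpl9-ps6 had 25.2, 22.6 and 25.3 and 15.01, 20.61 and 22.21. These were the 2 members whose groups did not overlap, both lower, a pattern that 8.79% of all genes showed. No core gene had groups that did not overlap.

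Most members had higher values with acetate at d5, and none passed the test in the main fit. The edgeR count was 0 of 84, with 1.52% of all genes called, and 3 members had an unadjusted p under 0.05. DESeq2 and limma-voom called 0. A fit of only the libraries compared called 4, all higher, and its share of all genes is not given here. The median log2 change was 0.20 (74 positive, 10 negative) beside 0.01 over all genes, with 0.12 to 0.28 when each library was left out in turn. The SD of the core genes' median level between replicates was 0.216, and members move together. In 53 members both acetate libraries exceeded both controls, a pattern 29.8% of all genes showed upward, and in 3, Rps28, Rpl13 and Rpl28, both were below, against 29.2% of all genes. Rpl5, which holds the 5S ribosomal RNA together with Rpl11, had 906 and 869.8 CPM at d5 and 1171 and 1478 with acetate, a log2 change of 0.58 ± 0.25 SE with adjusted p = 0.233. Fam69a, transcribed the other way, covers 24.3% of the exonic bases of Rpl5, and whether strand was used in counting is unknown. Rpl4, of the peptide exit tunnel, had 3317 and 3265 CPM at d5 and 4059.9 and 4743 with acetate (0.42 ± 0.19 SE). Rpl22l1, the paralog of Rpl22, had 327 and 302 and 394 and 446 (0.42 ± 0.19 SE). In all 3 genes both acetate libraries were above both others, and none was past the threshold.

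The difference between the acetate effects at d9 and at d5 was tested in the same fit. Its median over members was -0.29 (4 positive, 80 negative) beside -0.01 over all genes. None of the 84 was called by edgeR or DESeq2, 0% of all genes were called, and 0 members had an unadjusted p under 0.05. The smallest p belonged to Rpl38, a 60S protein known for selective translation in development, at -0.44 ± 0.25 SE with adjusted p = 0.700. Rpl38 had 568 and 501, then 595 and 692 CPM at d5 without and with acetate, and 834, 627 and 732, then 561, 797 and 591 CPM at d9. Rpl10-ps3 at -0.61 ± 0.36 SE and Rpl9-ps6 at -0.40 ± 0.24 SE came next. Leaving out 1 library at a time gave medians from -0.45 (without d9 with acetate replicate 2) to -0.14 (without d9 replicate 1).

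Between d5 and d9 without acetate, most members had higher values at d9 and a few passed the test. Of 84, 8 were called higher, against 15.9% of all genes, and 2 lower, against 21.2%. The 8 are 9.52% of the members, below the background in this fit, and whether the share lay below or above it depended on the setting, as given further down. The median log2 change was 0.33 (72 positive, 12 negative) beside -0.01 over all genes. All 3 d9 libraries exceeded both d5 libraries in 57 members, a pattern 29.7% of genes showed, and lay below both in 2, against 33.4%.

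Of the core genes, 5 of 31 in the 40S and 2 of 43 in the 60S subunit were called higher, against 15.9% of all genes. The subunits had similar median log2 changes, 0.36 and 0.35, and 16 genes each with an unadjusted p under 0.05 (edgeR). Rps13 had 875 and 831 CPM at d5 and 1392, 1187 and 1248 at d9, a log2 change of 0.58 ± 0.14 SE with adjusted p = 0.00994 (edgeR). Every d9 library was above every d5 library, also among the libraries with acetate, which had 866 and 988 and 1127, 1444 and 1131. Rps16 went from 1231 and 1122 to 1856, 1536 and 1686 (0.52 ± 0.16 SE), and Rps23, which sits at the decoding centre, from 1011 and 936 to 1608, 1200.3 and 1341 (0.51 ± 0.17 SE). Rps6, the substrate of the S6 kinases downstream of mTORC1, had 1005 and 949 CPM at d5 and 1571, 1236 and 1378 at d9 (0.51 ± 0.17 SE). Also called higher were the 60S genes Rpl24 and Rpl41, with log2 changes of 0.47 and 0.50, and Rps19bp1 at 0.46. Rpl41 encodes a very short peptide of the 60S subunit. For Rps6, Rps16 and Rps23 the groups did not overlap, and the highest value was that of d9 replicate 1, the high-share library. Over 21 other settings Rps13 was past the threshold in 18, Rps16 in 16, Rps23 in 14 and Rps6 in 13.

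The 2 called lower were processed copies. Rps12-ps3 had 4.58 and 3.27 CPM at d5 and 0.985, 0.593 and 0.783 at d9 (-2.31 ± 0.27 SE, adjusted p = 0.000112 with edgeR), and Rps27rt had 31.7 and 27.7 and 23.6, 15.9 and 17.6 (-0.64 ± 0.21 SE). Both had every d9 library below every d5 library. Over 21 other settings, Rps12-ps3 stayed past the threshold in 21 of 21 and Rps27rt in 16 of 21.

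**Figure D4:**
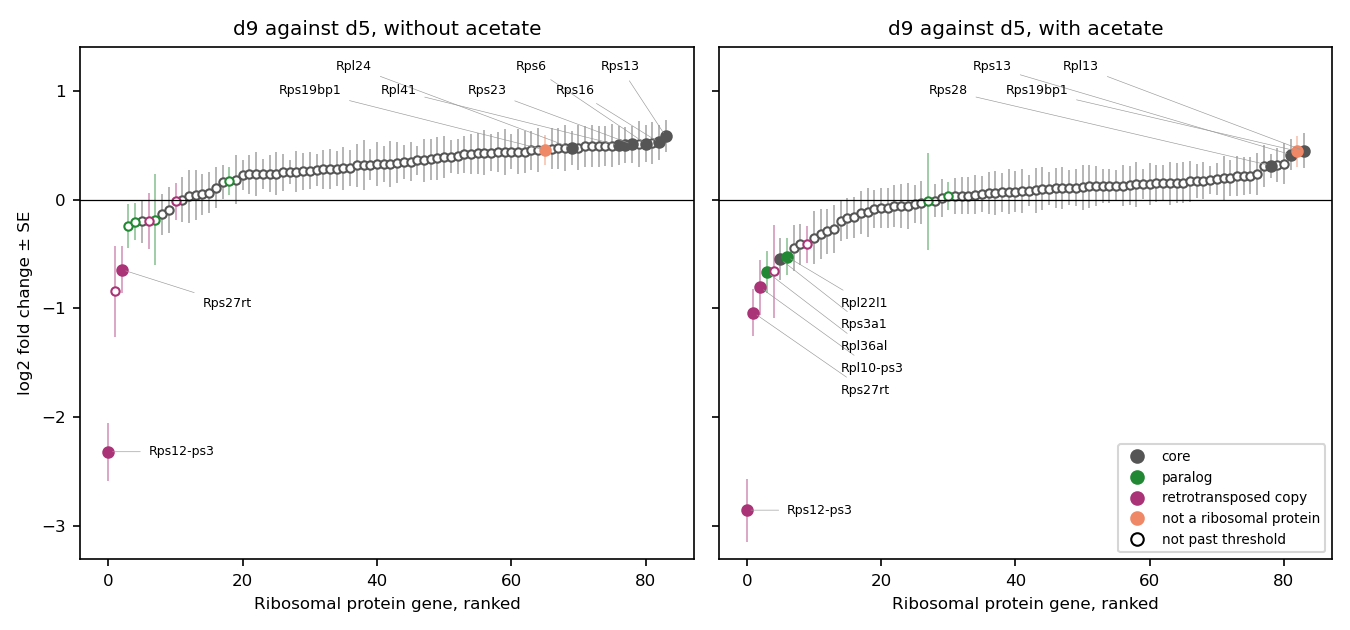
Log2 fold change ± SE of the 84 tested members between d9 and d5, ranked, without acetate (left) and with acetate (right); filled points passed an adjusted p of 0.05, and most of these are named. Without acetate most members lie above 0 (median 0.33), and with acetate they lie closer to 0 (median 0.08); Rps12-ps3 and Rps27rt are lowest of the called genes in both.

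With acetate, the median change between d5 and d9 was closer to 0 and the calls were split in direction. The difference from the comparison without acetate is the difference of acetate effects given above, which called 0 members. Of 84 members, 4 were called higher, against 18.5% of all genes, and 6 lower, against 23.1%. The median log2 change was 0.08 (55 positive, 29 negative) beside -0.01 over all genes, and it was -0.03 when libraries were scaled by size alone. All d9 libraries exceeded both d5 libraries in 5 members (29.1% of genes) and lay below both in 9 (33.4% of genes). The higher genes were Rpl13, Rps13, Rps28 and Rps19bp1. Rpl13, a 60S protein, had 1261 and 1277 CPM at d5 and 1408, 2077 and 1707 at d9 (0.45 ± 0.16 SE), and without acetate 1380.1 and 1378 and 1989, 1693 and 1929.7. Rps13 changed by 0.41 ± 0.14 SE and Rps28 by 0.31 ± 0.11 SE, the latter from 499 and 524 to 606, 660.0 and 639 CPM. Rps19bp1 had 37.1 and 31.9 CPM at d5 and 41.4, 54.6 and 44.8 at d9 (0.44 ± 0.14 SE). Over 21 other settings Rps19bp1 was past the threshold in 15, Rps13 in 10, Rps28 in 8 and Rpl13 in 7.

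The 6 lower genes held 3 processed copies, 2 paralogs and 1 core gene. Rps12-ps3 fell from 3.19 and 3.37 to 0.379, 0.504 and 0.469 CPM (-2.85 ± 0.29 SE) and Rps27rt from 30.1 and 32.4 to 11.1, 17.3 and 17.2 (-1.04 ± 0.21 SE, adjusted p = 0.00322 with edgeR). Rpl10-ps3 fell from 13.0 and 10.8 to 5.31, 5.68 and 9.38 (-0.81 ± 0.25 SE), and Rpl36al, a paralog of Rpl36a, from 12.2 and 10.4 to 6.11, 8.66 and 6.65 (-0.66 ± 0.20 SE). Rpl22l1 fell from 394 and 446 to 259, 342 and 275 (-0.52 ± 0.17 SE). Rps3a1, the core 40S gene, had 1592 and 1756 CPM at d5 with acetate and 1026, 1402 and 1009.8 at d9 with acetate (-0.55 ± 0.19 SE). All 6 had groups that did not overlap. Over 21 other settings Rps12-ps3 and Rps27rt were past the threshold in 21, Rpl36al in 17, and Rpl10-ps3 and Rpl22l1 in 16. The adjusted p of Rps3a1 was 0.0427 with edgeR, near the threshold, and its calls under the other settings were not counted. The d5 with acetate group is shared by this comparison and the acetate comparison at d5, where Rps3a1, Rpl22l1 and Rpl36al had log2 values of 0.42, 0.42 and 0.40 that did not pass.

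These counts depended on single libraries. Without acetate the number called was 1 when either d5 library was left out, 2 without d9 replicate 3, 6 without d9 replicate 1 and 38 without d9 with acetate replicate 2, a library that is not in that comparison. Why the count moved was not tested. With both high-share libraries left out, 23 were called higher and 6 lower, with a median of 0.19. The 6 lower are 7.14% of members, against 25.6% of all genes. The share of members called higher without acetate was above that of all genes under 5 of the settings run. It was 42.9% against 19.3% without d9 with acetate replicate 2, 27.4% against 20.4% without both high-share libraries, and 17.9% against 16% with only the libraries compared. With DESeq2 it was 28.6% against 18.2%, and with no filter on low counts 43% against 9.73%. In the rest of the settings it was below. In the comparison with acetate, leaving out both high-share libraries gave 3 higher and 18 lower with a median of -0.10, a change of sign. These were 3.57% and 21.4% of members, against 25% and 26.4% of all genes. Omitting either d5 with acetate library left 2 or 3 called. DESeq2 called 24 higher and 2 lower without acetate, and 4 and 6 with acetate. Of all genes it called 18.2% and 20.2% without acetate, and 21% and 22% with it. Scaling by library size alone called 1 higher and 2 lower without acetate, and 0 and 8 with acetate. Of all genes it called 11.7% and 24.7% without acetate, and 13.7% and 26.7% with it.

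Since core genes move together, each member was also read relative to the summed counts of the members, which sets a common rise to zero. On that scale 0 members were higher at d9 than at d5 without acetate (4.71% of all genes) and 9 were lower (24.7%), and with acetate 1 was higher (7.65%) and 9 lower (16.9%). The scaling centres the members and shifts other genes against them, so these shares of all genes are not a like background. In the main fit the shares of all genes were 15.9% and 21.2% without acetate, and 18.5% and 23.1% with it. The acetate comparisons and their difference called 0 members on this scale. Among those lower in both were Rps12-ps3, Rps27rt, Rpl36al, Rpl22l1 and the core genes Rps3a1, Rpl7 and Rps4x. Rpl36a-ps1 was lower without acetate and Rpl23 with it, and Rps13 was the 1 higher with acetate. Rpl36a-ps1 had only 153 counts in all and passed in 10 of 15 other settings. Over 16 other settings Rps3a1 was past the threshold in 15 in both comparisons, and Rpl22l1 in 12 in both. Rpl7 passed in 10 without and 13 with acetate, Rpl36al in 8 and 13, and Rps4x in 8 and 9. Rpl23 and Rps13 passed in 6 with acetate. Differences between these lists were not tested.

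As a share of core counts, Rps3a1 made up 1.25% and 1.29% at d5 and 0.941%, 0.838% and 0.812% at d9, and 1.49% and 1.44% and 0.999%, 0.956% and 0.930% with acetate. Its relative log2 change was -0.56 ± 0.11 (SE) without and -0.61 ± 0.11 with acetate, and its adjusted p was 0.00571 and 0.00468 by edgeR. Rpl7, a 60S protein, went from 1.59% and 1.55% to 1.28%, 1.09% and 1.05% without acetate, and from 1.82% and 1.74% to 1.29%, 1.27% and 1.19% with it. Rps4x, the X-linked 40S gene, went from 2.56% and 2.49% to 2.11%, 1.98% and 1.85%, and with acetate from 2.58% and 2.63% to 2.09%, 2.09% and 1.91%. Rps13 moved the other way, from 0.855% and 0.875% to 0.950%, 1.08% and 1.04%, and with acetate from 0.811% and 0.811% to 1.10%, 0.984% and 1.04%. For all 4 genes the d5 and d9 libraries did not overlap in share. Rpsa, the most abundant core gene by counts and also known as a laminin receptor, took 5.26% and 5.21% at d5 and 5.00%, 5.11% and 4.94% at d9, and 5.26% and 5.34% and 4.79%, 4.83% and 4.79% with acetate. Its d5 and d9 libraries did not overlap either, though it was not called on this scale.

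Base composition differed along with these changes. Over the 74 core genes, Pearson's r between transcript GC content and the log2 change was 0.28 and 0.36 for d9 against d5 without and with acetate, and -0.45 and -0.42 for acetate at d9 and d5. Over 13163 tested genes with a value it was 0.25, 0.32, -0.18 and -0.25. The genes share libraries and are not independent replicates, and the part of GC content in the results was not tested. The start site runs shown above were set beside the changes as well. The 24 core genes with a run had a median log2 change of 0.37 between d5 and d9 without acetate and the 31 without a run one of 0.32, with interquartile ranges of 0.26 to 0.46 and 0.25 to 0.46.

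Processed copies are hard to tell from their parents by sequence. The transcript of Rps12-ps3 aligned to Rps12 at 100% identity over 450 bases, and 100% of its stretches of 50 bases occur in Rps12 transcripts. Rps27rt aligned to Rps27 at 100% identity over 341 bases, with 91.1% of its 50-base stretches shared. The same share was 96.1% for Rpl10-ps3, 89.2% for Rpl9-ps6 and 65.0% for Rpl36a-ps1. Counts of these copies are therefore uncertain, and they were small beside those of their parents. Rps27rt had 2.85 and 2.67 counts per 100 counts of Rps27 in the d5 libraries, 2.74 and 2.45 with acetate, 1.28, 1.21 and 1.22 at d9 and 0.924, 0.967 and 1.48 at d9 with acetate. Rps12-ps3 had 0.316 and 0.251 per 100 of Rps12 at d5, 0.223 and 0.199 with acetate, 0.0462, 0.0359 and 0.0433 at d9 and 0.0254, 0.0230 and 0.0307 at d9 with acetate. In both pairs every d9 library lay below every d5 library. The parents had the opposite sign between d5 and d9 without acetate, at 0.51 ± 0.21 SE for Rps27 and 0.44 ± 0.19 SE for Rps12, neither past the threshold. Processed pseudogenes as a class took 0.293% to 0.344% of counts in the d5 groups and 0.162% to 0.250% in the d9 groups, and the part of this in the copies' counts was not tested.

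**Figure D5:**
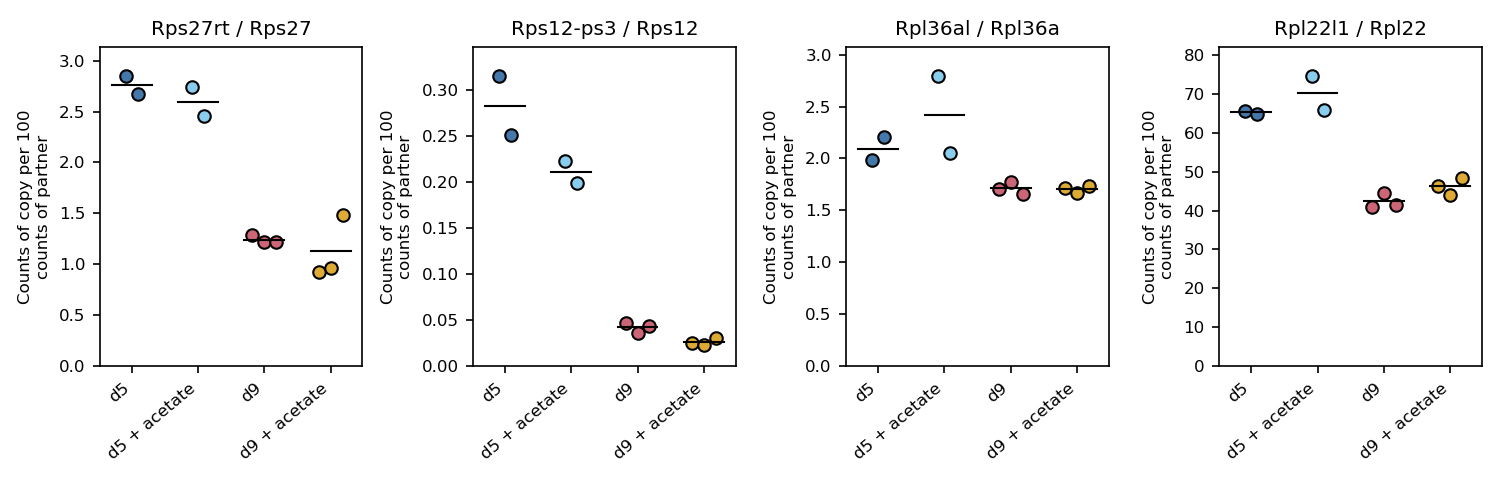
Counts of a copy or paralog per 100 counts of its partner, 1 point per library with the group mean as a line, for Rps27rt, Rps12-ps3, Rpl36al and Rpl22l1. In all 4 pairs the d9 libraries lie below the d5 libraries, with Rpl22l1 at 41.0 to 48.4 against 64.9 to 74.6.

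Paralogs with sequences of their own can be told from their partners. Rpl22l1 and Rpl22 align at 74.2% identity and share no 50-base stretch, and both bind RNA and are known for roles in T cell development. Rpl22l1 had 65.8 and 64.9 counts per 100 of Rpl22 at d5, 74.6 and 66.0 with acetate, 41.0, 44.5 and 41.5 at d9 and 46.2, 44.1 and 48.4 at d9 with acetate. The d5 and d9 ratios did not overlap. Rpl22 had 497 and 465 CPM at d5 and 814, 536 and 592 at d9 (0.43 ± 0.21 SE, adjusted p = 0.126 with edgeR), while Rpl22l1 had 327 and 302 and 334, 239 and 246 (-0.20 ± 0.17 SE, adjusted p = 0.367). Relative to the members' sum Rpl22l1 had a log2 change of -0.55 ± 0.13 SE without and -0.58 ± 0.13 SE with acetate, both past the threshold. Each was past it in 12 of 16 other settings. The gene lies at chr3:28805436-28807424 on the plus strand of GRCm38, and 7.99% of its exonic bases are shared with a gene on the other strand.

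Rpl36al had 1.98 and 2.20 counts per 100 of Rpl36a at d5, 2.80 and 2.05 with acetate, 1.71, 1.77 and 1.66 at d9 and 1.71, 1.67 and 1.74 at d9 with acetate. Of its exonic bases, 24.5% are shared on the same strand with Gm49383, which had 1 count in all. Rpl7l1, a nucleolar relative of Rpl7, had 8.36 to 10.0 counts per 100 of Rpl7 in the d5 groups and 9.59 to 13.0 in the d9 groups. These overlapped without acetate, and with acetate they did not, at 8.53 and 8.36 against 12.2, 10.9 and 12.5. Rpl39l, known from testis, stood between 0.526 and 1.54 CPM in all libraries beside 439 to 790 for Rpl39. Rpl3l, the striated muscle form of Rpl3, had its 1 count at d5, and Rpl10l, the testis form of Rpl10, had 0 in every library.

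For a set of members known for roles besides the ribosome, values are given as a description, beside 72 of 84 members with positive values in the same comparison. Between d5 and d9 without acetate Rpl11, which with Rpl5 binds Mdm2, had 878 and 825 and 1405, 1047 and 1138 CPM (0.49 ± 0.18 SE, adjusted p = 0.0545 with edgeR), with groups that did not overlap. Rpl5 had a log2 value of 0.31 ± 0.23 SE and Rps3, which also acts with NF-kB, one of 0.36 ± 0.20 SE. The log2 value was 0.45 ± 0.18 SE for Rpl38, 0.24 ± 0.17 SE for Rpl10a, 0.23 ± 0.20 SE for Rps25, 0.23 ± 0.18 SE for Rpl13a and 0.28 ± 0.19 SE for Rpsa. None of these passed the threshold, and with acetate their log2 values lay between -0.12 and 0.13.

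Genes of the wider pathway were read from the same fit, against the background of 15.9% of all genes higher and 21.2% lower without acetate, and 18.5% and 23.1% with it. Of the 6 stalk and fusion genes, 1 was higher at d9 without acetate (Fau, 0.66 ± 0.20 SE) and 1 with acetate. Fau had 1143 and 967 CPM at d5 and 1971, 1424 and 1622 at d9. Of the 20 TOP factors, 2 were higher and 3 lower without acetate, and 1 higher and 4 lower with it. Nap1l1, a histone chaperone, fell by 0.96 on the log2 scale, and Npm1, a nucleolar protein of ribosome assembly, by 0.86 without and 1.46 with acetate. Npm1 had 598 and 614 CPM at d5 and 426, 287 and 286 at d9, and 1086 and 995 and 386, 431 and 316 with acetate, with no overlap between the days. So some TOP messenger RNAs fell while most core members had positive values.

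Of 15 tested genes of the mTORC1 and Larp1 list, 2 were higher and 3 lower at d9 without acetate, and 4 higher and 3 lower with it. Akt1s1, an mTORC1 inhibitor, rose by 0.56 ± 0.14 (SE) without acetate, while Rheb, the activator of mTORC1, fell by 0.47 and Larp4 by 0.86. Rps6kb1, the S6 kinase that phosphorylates Rps6, fell by 0.49 without and 0.59 with acetate, the latter from 38.7 and 36.1 to 23.9, 26.0 and 24.4 CPM. Larp1 rose by 1.32 ± 0.33 (SE) with acetate. Of the 9 dedicated chaperones of ribosomal proteins, 2 were higher without acetate and 2 with it. Heatr3, which escorts Rpl5, was among them both times, with 58.9 and 65.5 CPM at d5 and 89.4, 87.5 and 87.1 at d9. Of 77 tested mitochondrial ribosomal protein genes, 5 were higher and 2 lower without acetate, and 6 higher and 8 lower with it, with Mrpl1 falling by 0.95 and 1.51. In both acetate comparisons and their difference, none of the genes of these lists passed the threshold with edgeR, and at d5 the smallest adjusted p among TOP factors was 0.0843, for Eif3e.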

How the data were processed

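RNA was measured by stranded, polyadenylated RNA sequencing in 10 libraries. The deposited values are raw gene counts, 1 file per library, and the submitters' processing notes name STAR, featureCounts, DESeq2, deepTools and GRCm38, with roles, versions and the strand setting not given in the sources used here. Without that setting, reads of a gene and its antisense partner cannot be told apart. Gene IDs were matched to GENCODE M21 (53360 of 53465). Counts were fitted with edgeR 4.0.16 (R 4.3.3; TMM scaling, filterByExpr by group, robust quasi-likelihood, 4 group means), with Benjamini-Hochberg adjustment over 13182 genes and a threshold of 0.05. CPM are counts relative to TMM-scaled library sizes. SE is the standard error of the fitted log2 fold change. The script was tested on simulated data. DESeq2 1.42.0, limma-voom (limma 3.58.1), other scalings and filters, a replicate block and leaving out libraries were alternatives. Genes named by rule were, per comparison, the 4 highest and 4 lowest log2 changes past the threshold or else the 3 of smallest p, the 5 highest and 3 lowest core levels per kilobase, paralogs with their partners, members with known further roles, the 3 highest and 3 lowest relative changes past the threshold, and up to 3 genes of each other list by smallest p. Further members called, the other processed copies, Rps12, Rpl28, Rpl15, Rpl7, Rps4x and Rpl23 were named after their values were seen. Members, lists and tests were chosen with earlier results of these data known. Rps4l and Rpl37rt were not found by symbol. Results of a few genes are not reported here.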

Additional observations from a re-analysis of the deposited data

How the results depend on the processing

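For d9 against d5 without acetate, the 10 members called became 3 with scaling by library size alone, 39 with no filter beyond 1 count, 26 with DESeq2, 29 without both high-share libraries, 17 with only the libraries compared, and 1 to 38 when each library was left out in turn. With acetate, the 10 called became 21 without both high-share libraries, 5 with only the libraries compared, and 2 to 10 when each was left out. For acetate at d5, 4 were called with only the libraries compared. Scaling to the members' sum sets the members' median near 0, and gave -0.0145 without acetate, a change of sign, and -0.0050 for the difference of acetate effects. The counts relative to that sum given next have no share of all genes beside them. Relative to the members' sum, the 9 called without acetate became 3 with no filter and 14 without both high-share libraries (3 to 10 when each library was left out), and the 10 with acetate became 4 with no filter (2 to 12).

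Medians when each library was left out ranged from 0.12 to 0.28 for acetate at d5, -0.22 to 0.04 for acetate at d9, 0.24 to 0.40 for d9 against d5 without acetate, -0.07 to 0.19 with acetate, and -0.45 to -0.14 for the difference. Replicate numbers are shared by the groups. Deviations of same-numbered samples had r of both signs (-0.139, -0.392 and 0.329 at d9), and the samples were not treated as pairs. Deviations centred within groups this small cannot decide whether samples were paired. The highest r at d9 was 0.509, between d9 replicate 1 and d9 with acetate replicate 2, the high-share libraries. Whether samples with different numbers share a source is not stated and was not tested. With the replicate block, 3 members were called in each day comparison, and relative to the members' sum 3 without and 5 with acetate. The cause of these differences was not tested. Nor was the effect of depth, which differed between the d5 and d9 groups. Counts were low for tested members such as Rpl36a-ps1 (153 counts in all), Rpl39l (180 counts) and Rps12-ps3 (345 counts).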
